A study of Homo sapiens with 6 samples.

Results

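The nucleolar factors that build ribosomes were examined as a set of 52 genes, grouped by function: multifunctional nucleolar proteins, RNA polymerase I and its cofactors, core proteins of small nucleolar ribonucleoproteins, the small subunit processome, later small subunit factors and large subunit assembly factors. The set was chosen with earlier results of these data known. All 52 were found by symbol among the 61280 gene rows of the deposited table, and all 52 were among the 14621 rows with enough signal to test. The RNA came from MDA-MB-231, an established human triple-negative breast cancer cell line. The 3 control libraries are from untreated cells and the 3 irradiated libraries from cells given 20 Gy of X-rays and cultured for a further 24 h. Both groups are this 1 line in the same serum-supplemented medium, with no genetic change named between them. How long the controls were cultured is not given in the sources used here, so irradiation and culture time cannot be told apart. Whether the numbered replicates are separate cultures is not stated either, and every p-value therefore reflects the spread between these libraries alone, which may be technical.

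Ribosome assembly starts in the nucleolus, where RNA polymerase I copies ribosomal DNA into a long precursor. Small nucleolar ribonucleoproteins guide methylation and pseudouridylation of that precursor, the small subunit processome folds and cuts its first portion, and a separate set of GTPases, helicases and scaffold proteins assembles the large subunit. Dividing tumour cells express many of these genes at high levels, in part through the transcription factor MYC. The values are messenger RNA levels in TPM, a share of the library corrected for transcript length, so levels can be compared between genes. In bulk samples, fewer cells of a type and less RNA per cell cannot be told apart.

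The libraries carried markers of the line, some of which were themselves lower after irradiation. VIM was at 2011, 1936 and 1955 TPM in controls and 1586, 1599 and 1583 TPM after irradiation, and AXL and CAV1 also lay lower in every irradiated library than in any control, while KRT18 (340.3 to 375 TPM) and CD44 (186 to 268 TPM) overlapped. The sum of these 5 markers was 2906 to 2968 TPM in controls and 2428 to 2496 TPM after irradiation, and its part in the results was not tested. Of 4 markers taken as low in this line, PGR was listed at 0, ESR1 and CDH1 reached at most 0.39 and 0.4 TPM, and EPCAM was at 8.32 to 11.3 TPM. Of 4 fibroblast markers, COL1A1 was at 6.69 to 13.2 TPM and the others reached at most 0.11 TPM, and the sum of 3 endothelial markers was at most 1.64 TPM. Of 4 leukocyte markers, PTPRC was at 40.4 TPM in irradiated replicate 1 and at 0.11 to 0.45 TPM elsewhere, MS4A1 was listed at 0, and CD3E and LYZ reached at most 0.05 and 0.11 TPM. The summed level of the 4 was 0.12 to 0.49 TPM in controls and 0.19 to 40.4 TPM in irradiated libraries. Irradiated replicate 2 was the lowest of its group for 54.7% of all tested genes, and on the second principal component irradiated replicates 1 and 2 lay at opposite ends (-23.9 and 25.4, controls between -0.36 and 4.32). The part of these library differences in the results was not tested, and counts without each library are given below.

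Of the 52 nucleolar factors, 16 fell after irradiation, by small amounts, 36 did not pass the test and 0 rose (adjusted p under 0.05; the test was limma's, fitted to log2(TPM + 1), adjusted by Benjamini-Hochberg across the 14621 genes tested). The share that fell was 30.8%, against 4.07% of all tested genes, and 6.53% of all tested genes rose (595 lower and 955 higher, or 785 and 810 after median-ratio scaling). Because the set was chosen with earlier results of these data known, its contrasts with all tested genes are descriptions. At an unadjusted p under 0.05, 29 of the 52 were lower and 1, NOP10, was higher. The 16 falls ran from 12.3% to 24.1% of the control mean, and 0 members changed 2-fold. The median log2 change was -0.20 over the 52 genes (quartiles -0.25 and -0.15), against 0.03 over all tested genes.

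In 33 of the 52 genes every irradiated value lay below every control value, as in 14.5% of all tested genes. In 1 gene, NOP10, every irradiated value lay above, as in 20.4% of all tested genes, and in 18 the groups overlapped. Among the 7846 tested genes within the members' range of control levels, 6.86% fell, 21.7% had all irradiated values below all controls, and the median log2 change was -0.02. That range is wide (10.9 to 3170.1 TPM), and within it the genes were not matched to the members by level.

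**Figure D1:**
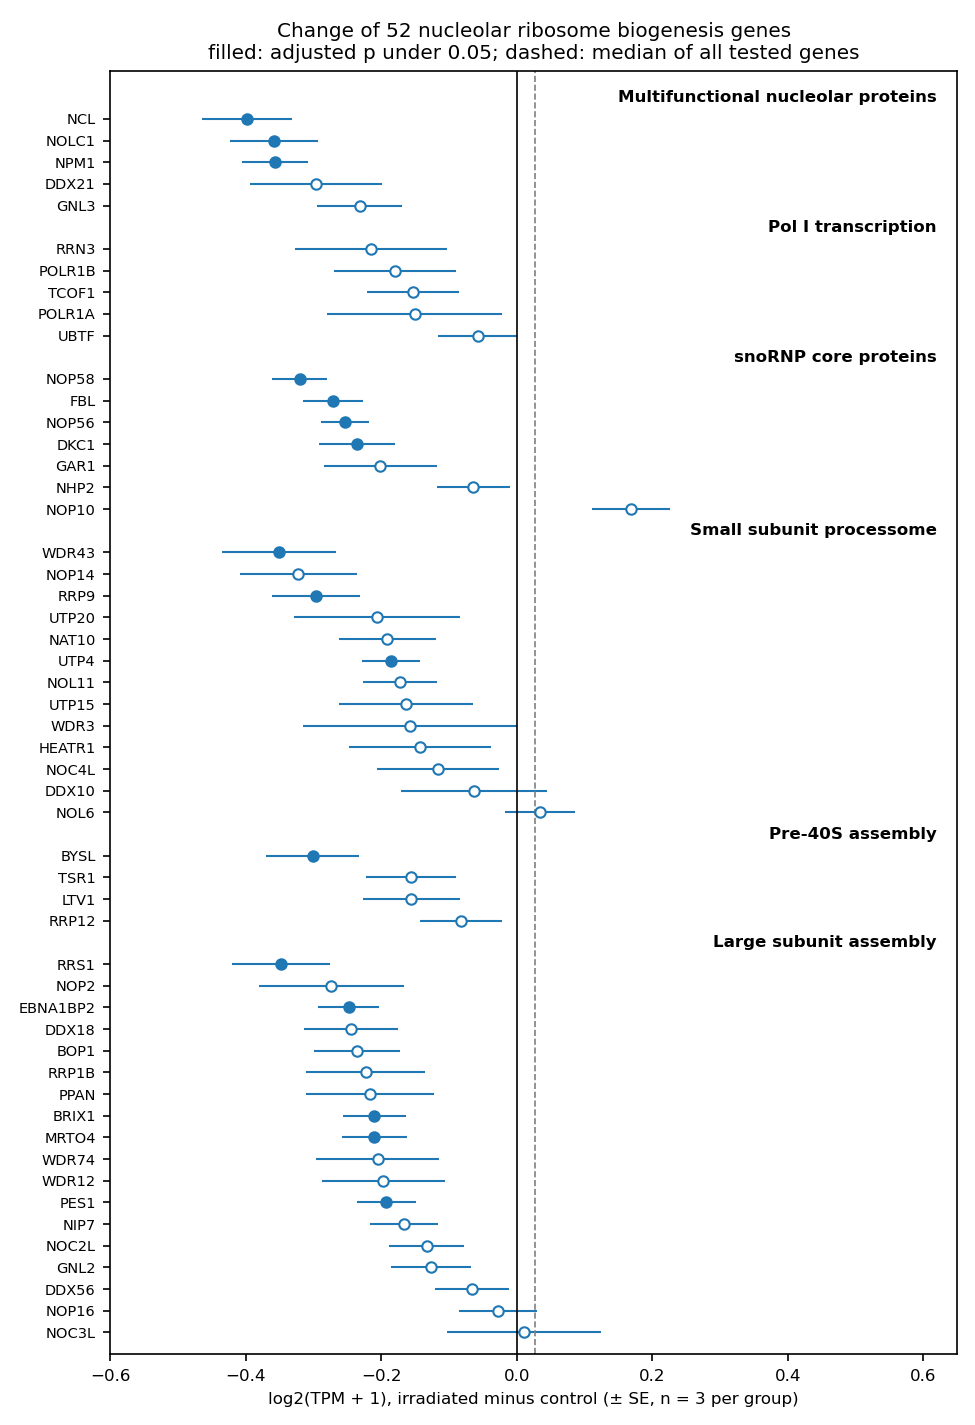
Fitted log2 change of each of the 52 genes (irradiated minus control, log2(TPM + 1), bars are SE, n = 3 per group), grouped by role, with filled points for an adjusted p under 0.05 and the median of all tested genes (0.03) as a line. The estimates of 49 genes lie below 0, those of the 16 genes that fell lie between -0.40 and -0.19, and NOP10 is the highest at 0.17.

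How many genes passed depended on which libraries entered the fit. Leaving out control replicate 1 or control replicate 2 gave 4, and leaving out control replicate 3 gave 6. Leaving out irradiated replicates 1, 2 and 3, each in turn, gave 6, 15 and 8. The count was 3 with no filter on low values (NPM1, NOP56 and NOP58) and 3 when the variance was not modelled against the level (NPM1, NCL and NOP58). Lower calls over all genes, 595 in the main fit, also dropped in these fits. They numbered 134, 133 and 295 without control replicates 1, 2 and 3, and 297, 516 and 257 without irradiated replicates 1, 2 and 3. With no filter there were 205, and 274 when the variance was not modelled against the level. The median log2 change of the members stayed negative in all 17 alternative fits, and no member was called higher in any of them.

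**Figure D2:**
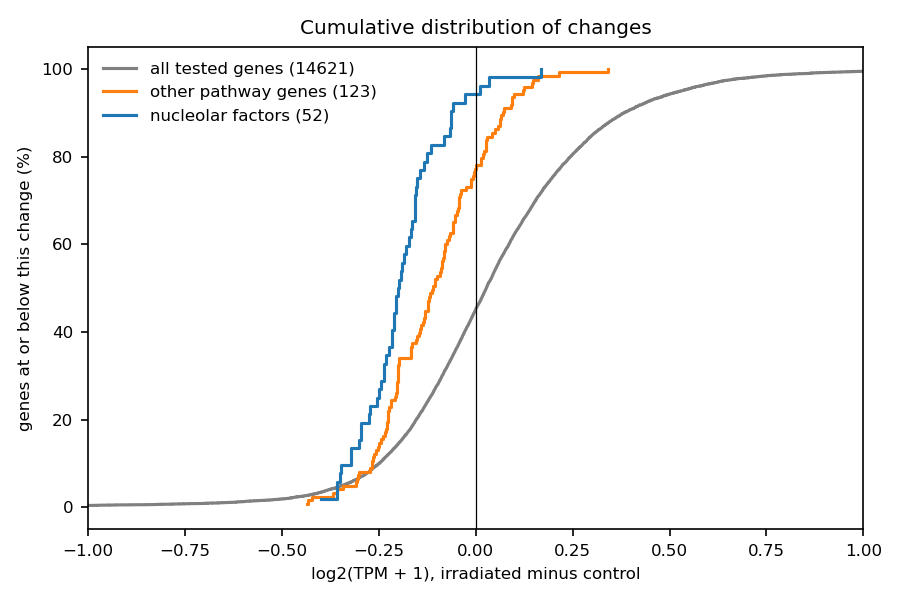
Cumulative distribution of log2 changes (horizontal axis, irradiated minus control, log2(TPM + 1)) for all 14621 tested genes, 123 other genes of ribosome synthesis and the 52 nucleolar factors. The medians are 0.03, -0.11 and -0.20.

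Summed over the 52 genes, controls held 8763, 8605 and 8349 TPM and irradiated libraries 7145, 7067 and 7439.6 TPM (libraries are always in the order of their replicate numbers). The groups did not overlap, and the sum was 8573 ± 209 against 7217 ± 197 TPM (mean ± SD, n = 3 per group, as for all levels below). Without NPM1, the most abundant member, the sums were 5449, 5432 and 5327 TPM in controls and 4693, 4679.9 and 4854 TPM after irradiation, again without overlap.

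Levels differed far more between genes than between groups. Control means ran from 10.9 TPM for HEATR1 to 3170.1 TPM for NPM1, with a median of 51.6 TPM. Of the 26 more abundant members 13 fell, and of the 26 less abundant 3 fell. Their median log2 changes were close, at -0.22 and -0.19, while the median residual SD between libraries was 0.073 and 0.111. Across the 52 genes, which share their libraries, the log2 change and the log2 control level had a Pearson r of -0.18 and a Spearman rho of -0.27, given as a description.

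Promoter windows of 4 genes that fell are shown because they hold CACGTG, the E-box that MYC and its partner MAX are known to bind. They are RefSeq windows on GRCh38.p14, from 250 bases before to 50 after the gene start, read 5′ to 3′ on the minus strand of the chromosome, with the E-box in capitals. FBL is at chr19:39846330-39846629, EBNA1BP2 at chr1:43172521-43172820, RRP9 at chr3:51941855-51942154 and PES1 at chr22:30591861-30592160.
FBL: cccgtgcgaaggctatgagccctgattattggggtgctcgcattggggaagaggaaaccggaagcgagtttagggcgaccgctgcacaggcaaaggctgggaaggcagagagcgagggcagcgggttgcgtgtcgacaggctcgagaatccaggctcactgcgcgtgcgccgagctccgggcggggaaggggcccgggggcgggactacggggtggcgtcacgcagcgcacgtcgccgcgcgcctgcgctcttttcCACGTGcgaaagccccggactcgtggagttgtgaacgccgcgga
EBNA1BP2: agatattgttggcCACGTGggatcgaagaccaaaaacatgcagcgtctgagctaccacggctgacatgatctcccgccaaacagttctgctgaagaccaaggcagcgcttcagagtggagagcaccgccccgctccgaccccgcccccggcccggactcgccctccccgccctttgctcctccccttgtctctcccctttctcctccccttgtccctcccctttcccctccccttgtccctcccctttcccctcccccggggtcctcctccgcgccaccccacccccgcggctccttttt
RRP9: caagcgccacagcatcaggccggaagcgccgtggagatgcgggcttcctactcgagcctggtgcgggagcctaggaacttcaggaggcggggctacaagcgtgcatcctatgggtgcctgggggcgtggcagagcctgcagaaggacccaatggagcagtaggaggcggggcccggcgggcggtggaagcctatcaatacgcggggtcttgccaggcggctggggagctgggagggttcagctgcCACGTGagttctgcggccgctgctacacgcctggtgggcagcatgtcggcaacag
PES1: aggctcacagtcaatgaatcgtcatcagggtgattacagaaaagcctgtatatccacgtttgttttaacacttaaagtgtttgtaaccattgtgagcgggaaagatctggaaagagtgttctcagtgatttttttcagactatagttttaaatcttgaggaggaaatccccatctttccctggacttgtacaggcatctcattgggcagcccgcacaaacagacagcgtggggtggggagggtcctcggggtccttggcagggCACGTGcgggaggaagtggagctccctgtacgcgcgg

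The E-box began at position 7 of FBL and 14 of PES1, counted from the gene start, and at -5 in RRP9 and -237 in EBNA1BP2. CACGTG reads the same on both strands and was the only motif searched. Windows were on file for 44 of the 52 genes, and 17 of these (38.6%) held it, against 7.43% of all 27305 windows and 10.2% of the 10263 windows of tested genes. It was in 8 of 13 windows of genes that fell and in 9 of 31 windows of the others. The windows of NPM1, NCL, NOP56, DKC1 and BRIX1, which fell, did not hold these letters, and that of NOP10 held 2 copies. The MYC transcript, looked up because of this motif, was at 103, 103 and 100.5 TPM in controls and 92.6, 94.9 and 99.7 TPM after irradiation. All irradiated values were lower, and MYC did not pass the test (log2 change -0.09 ± 0.04 SE, adjusted p = 0.236). Binding was not measured, and a part of MYC in the changes of the 52 genes was not tested.

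The multifunctional nucleolar proteins had the lowest median log2 change of the 6 role groups, -0.36, and 3 of 5 fell. NPM1 encodes nucleophosmin, a histone and ribosome chaperone of the outer nucleolus (chromosome 5, 171387116 to 171411137, plus strand, hg38). It was at 3315, 3173 and 3023 TPM in controls and 2452, 2387 and 2586 TPM after irradiation. The groups were far apart, and NPM1 fell by 21.9% (log2 change -0.36 ± 0.05 SE, adjusted p = 0.00900). NCL encodes nucleolin, an RNA-binding protein of early precursor processing (chromosome 2, 231453531 to 231483641, minus strand), and was at 695, 666 and 615 TPM in controls and 491, 468 and 541 TPM after irradiation. All irradiated values were again lower, and NCL had the largest change of the 52 (log2 change -0.40 ± 0.07 SE, adjusted p = 0.0161). NOLC1, a chaperone of small nucleolar ribonucleoproteins, was at 185, 184 and 177 TPM in controls and 147, 128 and 151 TPM after irradiation (log2 change -0.36 ± 0.07 SE, adjusted p = 0.0198).

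NPM1 kept its call in all 17 alternative fits. NCL and NOLC1 lost theirs when either control replicate 1 or control replicate 2 was left out (highest adjusted p, 0.0642 and 0.0745). Both also lost theirs with no filter on low values and with replicate number as a block, and NOLC1 when the variance was not modelled against the level. The remaining genes of the group were lower without overlap and did not pass. GNL3, which encodes the GTPase nucleostemin, was at 190.1 ± 9.70 against 162 ± 11.01 TPM (adjusted p = 0.0576). DDX21, an RNA helicase of precursor transcription and processing, was at 118, 114 and 114 TPM in controls and 102, 79.2 and 102 TPM after irradiation (adjusted p = 0.0948). Its irradiated replicate 2 lay well below the rest, and without that library DDX21 passed with a smaller change (-0.18, adjusted p = 0.0417). Reads of NPM1 can be shared with its processed copies. The 49 rows named as NPM1 pseudogenes summed to 17.1 to 23.0 TPM per library, at most 0.757% of NPM1.

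**Figure D3:**
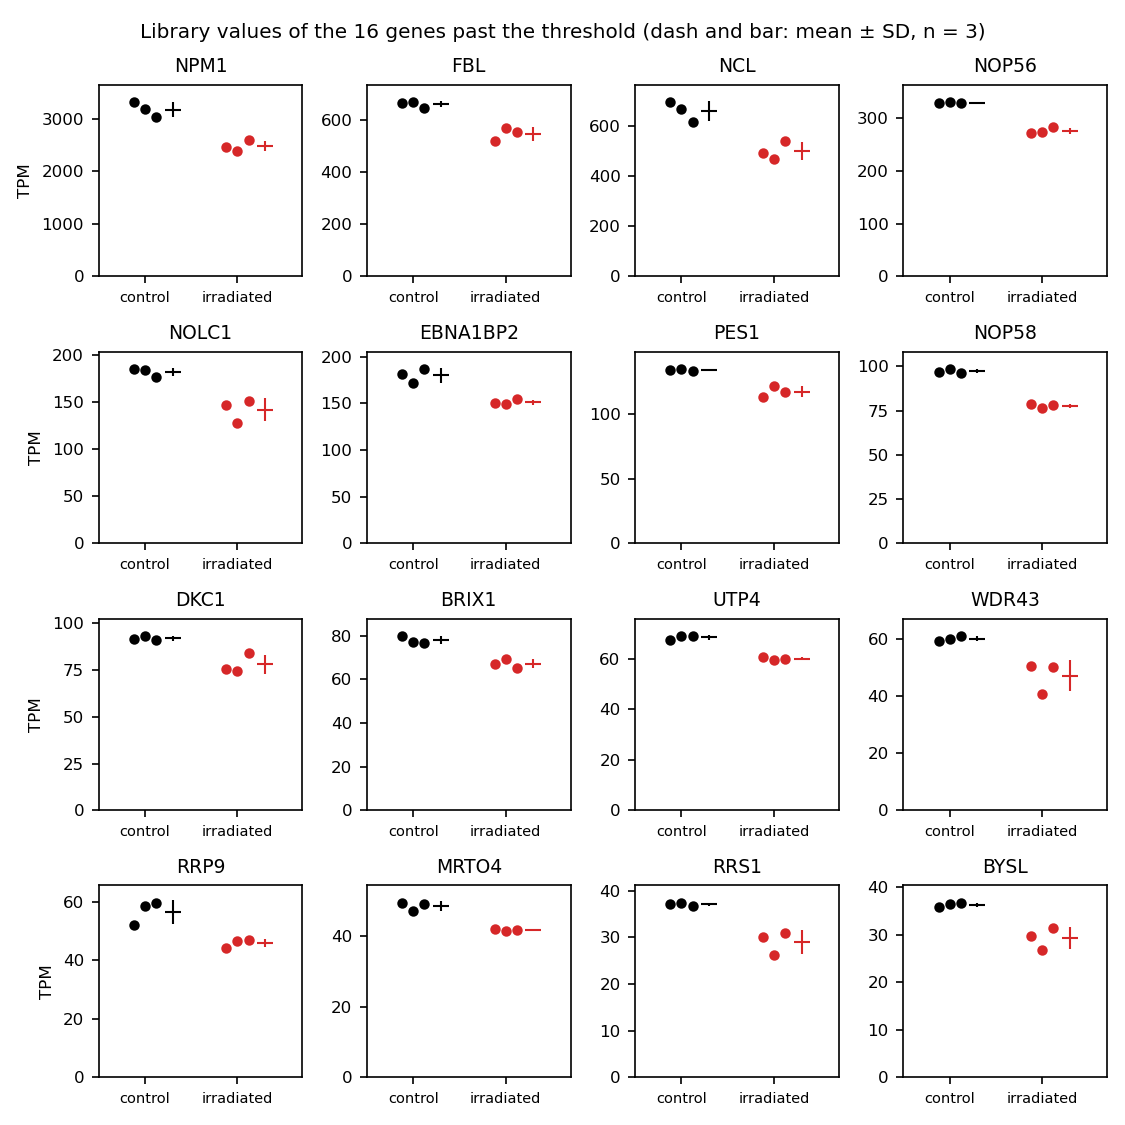
TPM in each control and irradiated library (points) for the 16 genes with an adjusted p under 0.05, with the mean and SD of 3 libraries per group. In every panel the 3 irradiated values lie below the 3 control values, from NPM1 (mean 3170.1 against 2475 TPM) to BYSL (36.3 against 29.4 TPM).

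Of the 5 genes of polymerase I transcription, 0 passed the test in limma, also at an unadjusted p under 0.05. All 5 estimates were below 0, with a median log2 change of -0.15. UBTF, which encodes the upstream binding factor of ribosomal DNA, was the most abundant, at 47.9, 50.5 and 45.2 TPM in controls and 47.5, 45.0 and 45.2 TPM after irradiation. Its groups overlapped (log2 change -0.06 ± 0.06 SE, adjusted p = 0.565). POLR1A and POLR1B, the large subunits of the polymerase, were at 16.9 ± 1.41 against 15.3 ± 2.56 TPM and 15.7 ± 1.36 against 13.7 ± 0.889 TPM, and TCOF1, which encodes the scaffold protein treacle, at 43.8 ± 2.51 against 39.3 ± 2.26 TPM. These also overlapped. RRN3, the initiation factor that recruits the polymerase, was at 21.5, 21.4 and 22.1 TPM in controls and 20.2, 15.3 and 20.5 TPM after irradiation. All its irradiated values were lower, replicate 2 by far the most (adjusted p = 0.259). RRN3 is uncertain because 4 rows named as its pseudogenes reached 16.5% of its own level in 1 library, so reads may be shared.

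Core proteins of the small nucleolar ribonucleoproteins numbered 7, of which 4 fell. In the box C/D class, which methylates ribosomal RNA, all 3 members fell. FBL encodes the methyltransferase fibrillarin (chromosome 19, 39834458 to 39846414, minus strand) and was at 667, 670.2 and 647 TPM in controls and 519, 569.8 and 556 TPM after irradiation (log2 change -0.27 ± 0.04 SE, adjusted p = 0.0146). NOP56, a scaffold of the particle (chromosome 20, 2652145 to 2658393, plus strand), was at 328, 330.3 and 328 TPM in controls and 271, 273 and 282 TPM after irradiation (log2 change -0.25 ± 0.04 SE, adjusted p = 0.00921). Its partner NOP58 (chromosome 2, 202265716 to 202303666, plus strand) was at 97.1, 98.6 and 96.4 TPM in controls and 78.7, 76.4 and 78.2 TPM after irradiation (log2 change -0.32 ± 0.04 SE, adjusted p = 0.00718), the smallest adjusted p of the 52. In NOP56 and NOP58 the controls lay close together and the irradiated values well below them. NOP58 kept its call in all 17 alternative fits, NOP56 lost it only when the variance was not modelled against the level (adjusted p = 0.0516), and FBL lost it when either control replicate 1 or control replicate 2 was left out (adjusted p up to 0.0636). FBL also lost it with no filter on low values, without the variance trend and with replicate number as a block. The ratio of FBL to NOP56 was 2.01 ± 0.0337 in controls and 1.99 ± 0.0858 after irradiation. That of NOP58 to NOP56 was 0.296, 0.298 and 0.294 in controls and 0.291, 0.279 and 0.277 after irradiation, lower without overlap. Both ratios are descriptions. SNU13, a core box C/D protein outside the 52, did not pass and is given below.

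In the box H/ACA class, which converts uridine to pseudouridine, the 4 members differed. DKC1, the pseudouridine synthase dyskerin, was at 91.5, 93.0 and 90.7 TPM in controls and 75.5, 74.3 and 83.9 TPM after irradiation, and fell (log2 change -0.24 ± 0.06 SE, adjusted p = 0.0416). That call was lost when any library but irradiated replicate 3 was left out (adjusted p up to 0.130). GAR1 was at 31.9 ± 3.30 against 27.5 ± 1.15 TPM and NHP2 at 516 ± 31.8 against 493 ± 17.7 TPM, and neither passed (adjusted p = 0.165 and 0.481). NOP10, a small structural protein of the particle, was at 414, 455 and 467 TPM in controls and 481, 527 and 493 TPM after irradiation (log2 change 0.17 ± 0.06 SE, adjusted p = 0.105). All its irradiated values were above the controls, and it did not pass. The ratio of NOP10 to DKC1 was 4.52, 4.89 and 5.15 in controls and 6.37, 7.09 and 5.88 after irradiation, without overlap. This pair was chosen after its values were seen, so the ratio is a description. Many small nucleolar RNAs are encoded in introns of such genes. Of 28 small nucleolar RNA rows inside 9 members, 23 were listed at 0 in all libraries and 0 were above 0 in all of them. Sequencing depth and the capture of such short RNAs are unknown here, so a listed 0 does not show absence from the cells.

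The small subunit processome had 13 members, of which 3 fell, with a median log2 change of -0.17. UTP4, of the complex that first binds the precursor, was the most abundant, at 67.2, 69.0 and 69.0 TPM in controls and 60.7, 59.5 and 59.7 TPM after irradiation (log2 change -0.19 ± 0.04 SE, adjusted p = 0.0377). Both groups were tight and apart. WDR43, of the same complex, was at 59.4, 60.0 and 61.0 TPM in controls and 50.5, 40.9 and 50.1 TPM after irradiation (log2 change -0.35 ± 0.08 SE, adjusted p = 0.0422), with irradiated replicate 2 the lowest. RRP9, which binds the U3 small nucleolar RNA, was at 52.01, 58.5 and 59.7 TPM in controls and 44.3, 46.5 and 47.0 TPM after irradiation (log2 change -0.30 ± 0.07 SE, adjusted p = 0.0326). Each call was lost in 5 of the 6 fits without 1 library: UTP4 and WDR43 kept theirs without irradiated replicate 2 and RRP9 without control replicate 1 (adjusted p otherwise up to 0.127, 0.120 and 0.117).

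Other processome genes did not pass. NOP14 had a change of similar size (26.9 ± 2.62 against 21.3 ± 1.29 TPM, adjusted p = 0.0566). NAT10, the cytidine acetyltransferase of ribosomal RNA, was at 39.4 ± 1.84 against 34.5 ± 2.58 TPM (adjusted p = 0.135), and NOL11 at 59.9 ± 1.95 against 53.1 ± 2.37 TPM (adjusted p = 0.0870). HEATR1, UTP20 and UTP15 were the least abundant of the 52, at 10.9 ± 0.275 against 9.83 ± 1.23 TPM, 13.3 ± 0.406 against 11.5 ± 1.92 TPM and 12.9 ± 0.676 against 11.4 ± 1.21 TPM. WDR3 was at 40.6, 45.5 and 41.0 TPM in controls and 39.8, 28.99 and 46.9 TPM after irradiation, so irradiated libraries lay on both sides of the controls, and its log2 change went from -0.16 to 0.03 without irradiated replicate 2. NOC4L, the helicase gene DDX10 and NOL6 overlapped, with log2 changes of -0.12, -0.06 and 0.03.

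Later small subunit assembly had 4 members, of which 1 fell. BYSL, which encodes the assembly factor bystin, was at 35.9, 36.4 and 36.7 TPM in controls and 29.8, 26.9 and 31.4 TPM after irradiation (log2 change -0.30 ± 0.07 SE, adjusted p = 0.0361). The groups were apart, and the call was kept without irradiated replicate 2 and lost without any other library (adjusted p up to 0.116). TSR1, a GTPase-like factor, was at 52.4, 54.8 and 53.5 TPM in controls and 48.4, 44.1 and 51.7 TPM after irradiation, lower in all irradiated libraries (adjusted p = 0.176). LTV1, which is released during late maturation, was at 52.04 ± 3.92 against 46.6 ± 2.47 TPM and RRP12 at 37.0 ± 1.13 against 34.9 ± 1.78 TPM, both with overlap.

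Large subunit assembly had 18 members, of which 5 fell, with a median log2 change of -0.21. EBNA1BP2, the human counterpart of yeast Ebp2, was the most abundant, at 181, 172 and 187 TPM in controls and 151, 149 and 154 TPM after irradiation (log2 change -0.25 ± 0.04 SE, adjusted p = 0.0191). RRS1, which helps to load the smallest ribosomal RNA of the large subunit, was at 37.2, 37.3 and 36.7 TPM in controls and 29.9, 26.1 and 30.9 TPM after irradiation (log2 change -0.35 ± 0.07 SE, adjusted p = 0.0279). In both genes the lowest control stood well above the highest irradiated library. BRIX1, an assembly factor that binds ribosomal RNA, was at 79.8, 77.1 and 76.8 TPM in controls and 67.0, 69.4 and 65.2 TPM after irradiation (log2 change -0.21 ± 0.05 SE, adjusted p = 0.0324). MRTO4, which holds the place of the ribosomal stalk protein, was at 49.5, 47.1 and 49.2 TPM in controls and 42.2, 41.6 and 41.7 TPM after irradiation (log2 change -0.21 ± 0.05 SE, adjusted p = 0.0373). PES1, which encodes pescadillo, was at 134, 135 and 134 TPM in controls and 113, 122 and 117 TPM after irradiation (log2 change -0.19 ± 0.04 SE, adjusted p = 0.0340). These 3 had tight groups and smaller falls. All 5 calls were lost in 4 or 5 of the 6 fits without 1 library (adjusted p up to 0.126). PES1 and BRIX1 also lost their calls after median-ratio scaling (adjusted p = 0.0643 and 0.0545), as did PES1 after quantile normalization (0.0521) and BRIX1 after GC and length correction (0.113).

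PES1 works in a complex with BOP1 and WDR12. BOP1 was at 81.5 ± 5.06 against 69.0 ± 3.61 TPM (log2 change -0.24 ± 0.06 SE, adjusted p = 0.0567) and WDR12 at 46.8 ± 5.59 against 40.5 ± 2.19 TPM (adjusted p = 0.204). Both were lower without overlap, WDR12 only just (lowest control 42.02 TPM, highest irradiated library 41.84 TPM). Levels stood in the order PES1, BOP1, WDR12 in all 6 libraries, and the ratio of PES1 to BOP1 was 1.66 ± 0.110 in controls and 1.71 ± 0.0520 after irradiation. The helicase gene DDX18 was at 51.2 ± 0.651 against 43.2 ± 3.68 TPM (adjusted p = 0.0660), NIP7 at 49.1 ± 1.20 against 43.6 ± 1.19 TPM (adjusted p = 0.0773) and RRP1B at 24.1 ± 0.321 against 20.6 ± 2.26 TPM (adjusted p = 0.147). These were lower without overlap, as were the GTPase gene GNL2 and NOC2L (log2 changes -0.13 and -0.13).

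In the other large subunit genes the groups overlapped. Log2 changes were -0.27 for the methyltransferase gene NOP2, -0.22 for PPAN, -0.21 for WDR74, -0.07 for the helicase gene DDX56, -0.03 for NOP16 and 0.01 for NOC3L. NOP16, second in abundance among the 18, was at 147, 138 and 159.6 TPM in controls and 146, 146 and 144 TPM after irradiation, so its irradiated values lay inside the control range. NOP2 and PPAN are uncertain because their rows share exons with another row on the same strand. NOP2 shares 2550 exon bases with AC006064.6 (26.3 to 30.6 TPM in controls), and PPAN shares 1447 with the read-through gene PPAN-P2RY11 (17.0 ± 0.704 against 14.0 ± 0.771 TPM). Whether counting used strand is not given in the sources used here, and 12 members, NOP2 and PPAN among them, share at least 200 exon bases with another coding gene of at least 1 TPM. PES1 and BRIX1, which fell, are also among them, with genes on the opposite strand. BRIX1 shares 482 bases with RAD1 (42.54 to 48.48 TPM) and PES1 246 with TCN2 (4.76 to 7.96 TPM). HEATR1 shares 2095 with LGALS8, also on the opposite strand and more abundant than HEATR1 (35.63 to 50.75 TPM).

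**Figure D4:**
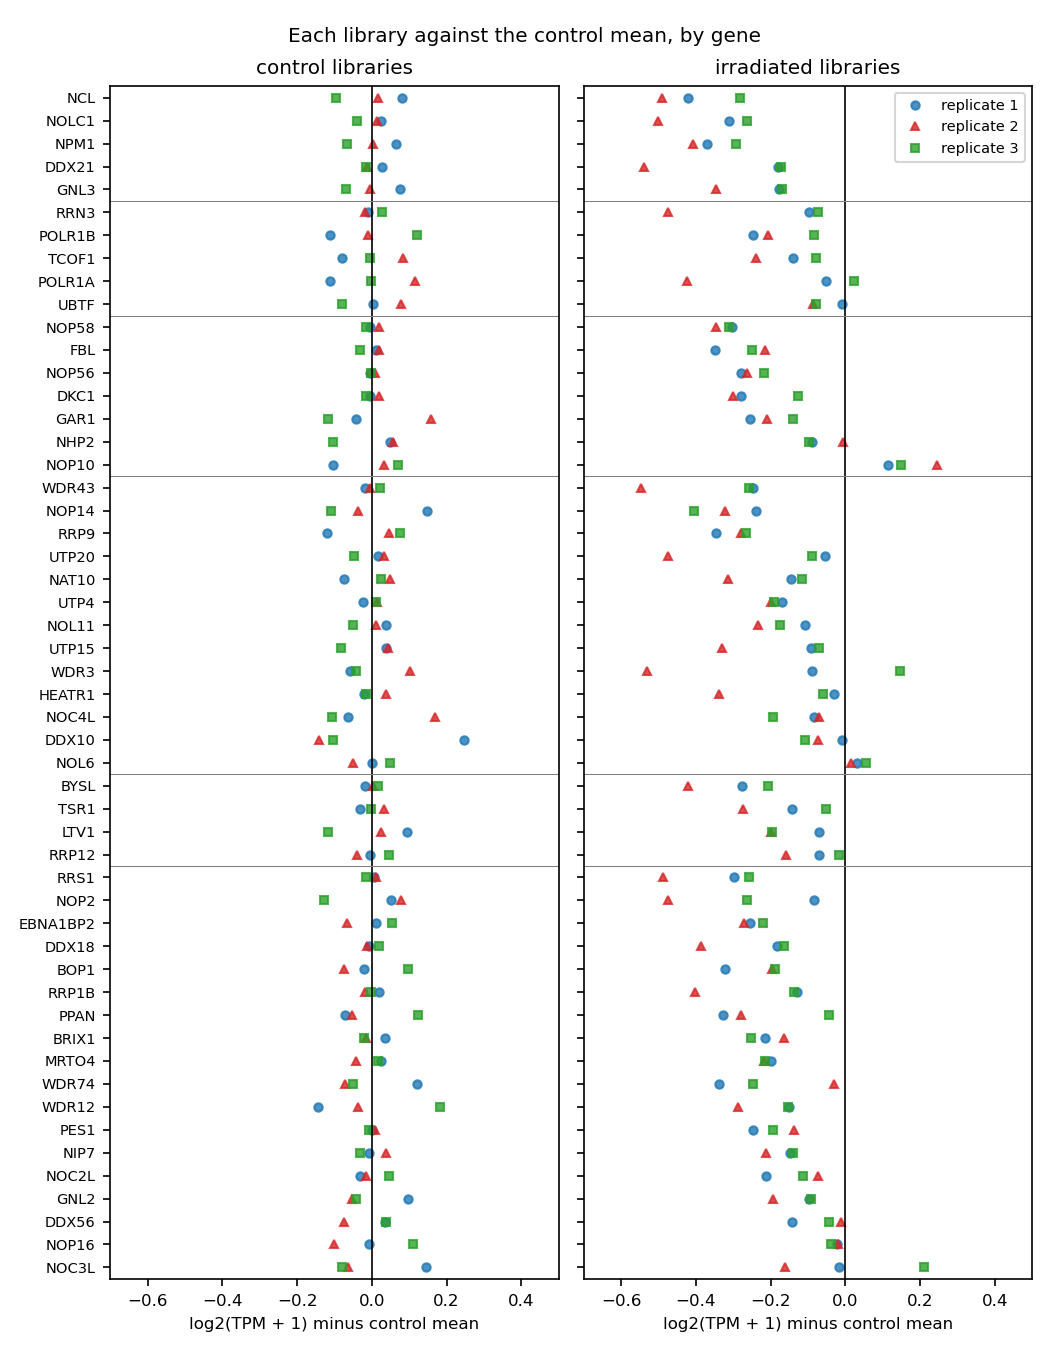
Difference of each library from the control mean (log2(TPM + 1)) for the 52 genes, by library. The median is -0.16, -0.27 and -0.15 in irradiated replicates 1, 2 and 3, and irradiated replicate 2 is the lowest of its group in 34 of 52 genes.

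The irradiated libraries were not equally low. The median difference of the 52 genes from the control mean was -0.16 in irradiated replicate 1, -0.27 in replicate 2 and -0.15 in replicate 3, against 0.05, -0.03 and 0.07 over all tested genes. Replicate 2 was at least 0.2 below both other irradiated libraries for 11 members (21.2%), among them DDX21, RRN3, WDR43 and WDR3, and for 23.2% of all tested genes. The cutoff of 0.2 was chosen after the values were seen. The longest annotated transcript of these 11 had a median of 5090 bases, against 2760 for the other members. Over all tested genes the same medians were 5084 and 2932 bases. Over all 52 genes, the median difference of replicate 2 from the other irradiated libraries was -0.067 in the genes with longer and -0.094 in those with shorter median transcripts. The Pearson r of that difference with log2 median transcript length was -0.17 over the 52 and -0.095 over all tested genes, given as descriptions. A part of transcript length in the low values of replicate 2 was not tested. WDR43 is the 1 of these 11 that fell.

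The rest of the ribosome synthesis pathway had a median change nearer to 0, a difference that was not tested. Of 123 other genes in 5 lists, 11 fell (8.94%, against 4.07% of all tested genes) and 1 rose, and the median log2 change was -0.11. In 50 of them (40.7%) every irradiated value lay below every control value, as in 14.5% of all tested genes. In 3 every irradiated value lay above, as in 20.4% of all tested genes. The share that fell was 14.6% of other small subunit factors, 6.67% of other large subunit factors and 14.3% of exosome genes. Of 41 other small subunit factors 6 fell, led by the atypical kinase gene RIOK1 (14.0 ± 0.221 against 10.2 ± 0.947 TPM, log2 change -0.44 ± 0.09 SE, adjusted p = 0.0269), UTP11 (log2 change -0.31 ± 0.08 SE, adjusted p = 0.0484) and UTP18 (log2 change -0.27 ± 0.05 SE, adjusted p = 0.0218). Of 45 other large subunit factors 3 fell: RPF2, the partner of RRS1 (18.8 ± 1.58 against 13.7 ± 1.59 TPM, log2 change -0.43 ± 0.10 SE, adjusted p = 0.0412), RRP1 (log2 change -0.42 ± 0.09 SE, adjusted p = 0.0290) and RSL24D1 (log2 change -0.23 ± 0.04 SE, adjusted p = 0.0202). Of 14 genes of the RNA exosome, which trims precursor ends, EXOSC3 (log2 change -0.37 ± 0.09 SE, adjusted p = 0.0423) and EXOSC9 (log2 change -0.23 ± 0.06 SE, adjusted p = 0.0490) fell. When control replicate 1, control replicate 2 or irradiated replicate 3 was left out, 0 genes of these 3 lists passed in limma.

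Of 12 other polymerase I genes, 1 rose and 0 fell, with a median log2 change of -0.12 and 3 lower at an unadjusted p under 0.05. TAF1C, a subunit of the promoter selectivity factor, was at 18.8, 17.9 and 17.1 TPM in controls and 23.6, 21.2 and 24.2 TPM after irradiation. All irradiated values were higher (log2 change 0.34 ± 0.08 SE, adjusted p = 0.0345), and TAF1C was the 1 gene of the list that passed. The list had 1 such gene without irradiated replicate 2 and 0 when any other library was left out. It also had 0 after GC and length correction, with no filter, without the variance trend and with the replicate block. Of 11 assembly factors of small nucleolar ribonucleoproteins, 0 passed in limma (4 lower and 1 higher at an unadjusted p under 0.05), with a median log2 change of -0.20. SNU13, the most abundant of them and also a core box C/D protein, was at 292, 293 and 289 TPM in controls and 289.8, 309.7 and 311 TPM after irradiation, with overlap (log2 change 0.06 ± 0.04 SE, adjusted p = 0.394).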

How the data were processed

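RNA-seq libraries were made from 3 control and 3 irradiated samples of MDA-MB-231 cells, from 1 μg of total RNA per the labels' protocols. The authors deposited 1 table of TPM values per gene and library, listed to 2 decimals. The build hg38 and the tools HISAT2, StringTie and RSEM are named in the submitters' processing notes, without versions or roles. TPM keeps no sequencing depth, so depth is unknown and no counting interval is given.

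Values were transformed to log2(TPM + 1) from the deposited TPM. Rows that reached 1 TPM in 3 or more of the 6 libraries (14621 of 61280) entered a linear model in limma 3.58.1 (R 4.3.3), with empirical Bayes moderation along the mean-variance trend and two-sided tests, no covariate, 4 residual and 3.39 prior degrees of freedom, and Benjamini-Hochberg adjustment over all tested rows at 0.05. Fold changes on this scale understate the changes of low genes. Tables were handled in Python 3.11.15 with pandas 2.3.3 and numpy 2.4.6, and the fit was checked on simulated data. Coordinates are from GENCODE 29 on hg38, and promoter windows from RefSeq on GRCh38.p14 (44 of 52 members matched).

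The members, lists and tests were chosen with earlier results of these data known. Library values are given for the called members of each role list and for its most abundant member, and for further members chosen after their values were seen (DDX21, RRN3, NOP10, WDR3 and NOP16). Up to 3 called genes per direction are named in each other list, or the most abundant where none was called. Promoters are those of the 4 called members with the smallest adjusted p whose window holds the motif. MYC and the read-through rows lie outside these rules. Alternatives changed the pseudocount, filter, scaling, variance model, gene set, GC and length correction, replicate block and libraries, 1 at a time.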

Additional observations from a re-analysis of the deposited data

How the results depend on the processing

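Of the members, 16 were called lower. The count was 3 with no filter on low values, 3 without the variance trend and 4 to 15 with 1 library left out. Over all genes, 595 were called lower and 955 higher; the counts were 205 and 292 with no filter and 133 to 516 and 213 to 898 with 1 library left out, and 274 were called lower without the variance trend. The cause was not tested. Members called lower numbered 16 to 20 under the other alternatives apart from the replicate block, including 20 with protein-coding genes only, an alternative chosen after seeing the data. The members' median log2 change ran from -0.23 to -0.16 over all 17 alternatives.

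Replicate numbers are shared by the groups, but same-numbered libraries did not deviate together (correlations 0.03, -0.06 and -0.03), so they were not treated as pairs. With a replicate block, 3 members were called lower (NPM1, NOP56 and NOP58), and over all genes 152 were called lower and 210 higher.

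The estimates of 4 uncalled members changed sign. With 1 library left out, log2 changes ran from -0.31 to 0.029 for WDR3 (positive without irradiated replicate 2), -0.13 to 0.060 for DDX10 (positive without control replicate 1), -0.078 to 0.027 for NOP16 (positive without control replicate 3) and -0.089 to 0.097 for NOC3L, which was also at -0.010 after median-ratio scaling. No called member changed sign. Depth is unknown, so its limit on low genes cannot be given.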
